A study of Mus musculus with 401 samples.

Results

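The expression of 8 genes of the Hippo pathway and of its CCN targets was followed in single mouse oocytes and in the cumulus cells that surrounded them. The genes were Ccn1 (formerly Cyr61), Ccn2 (formerly Ctgf), Ankrd1, Amotl2, Yap1, Wwtr1 (TAZ), Lats1 and Lats2, and they make up 8 of the 41092 genes counted in the first set of libraries and of the 42349 genes counted in the second set. They were taken by symbol and Ensembl identifier, and the group was chosen by a value in these data, the lower Ccn1 level of middle than of young cumulus cells in the first set. For that reason the cumulus values of that set are given below as a description, with no test, wherever the young or the middle mice are 1 of the compared groups.

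Hippo signaling is a kinase cascade in which LATS1 and LATS2 phosphorylate the coactivators YAP1 and TAZ and keep them out of the nucleus. Unphosphorylated YAP1 and TAZ bind TEAD factors on DNA, and Ccn1, Ccn2, Ankrd1 and Amotl2 are among the genes they are best known to induce. CCN1 and CCN2 are secreted matrix-associated proteins, and in the ovary CCN2 is known for its role in follicle growth and ovulation. Transcript levels of the kinases and coactivators do not report their phosphorylation, which was not measured here.

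All animals were female B6D2F1 (BDF1) mice, a first-generation cross of C57BL/6 and DBA/2. In the first set, oocyte-cumulus complexes came from mice fed ad libitum and called young (2 months, 2 mouse labels), middle (9 months, 4 labels) or old (14 months, 2 labels, one of which is written Old1_2 and was counted as 1), and from mice under adult-onset calorie restriction (CR, 9 months, 3 labels). In the second set they came from mice fed ad libitum at 2 months (5 mice), 4 months (8), 9 months (4) and 14 months (5) after hyperovulation, that is, hormone injection to ripen more follicles than in a natural cycle, and from 2-month mice without hyperovulation (8). The young, middle and old mice of the first set were hyperovulated too, and the methods give the injection (equine chorionic gonadotropin or HyperOva) for the mice in general, without saying which mouse got which agent. A cumulus library was made from the pooled cells around 1 oocyte, and several complexes of 1 mouse were sequenced, so that 71 cumulus and 73 oocyte libraries were used in the first set and 128 and 127 in the second. One middle complex was left out. Its oocyte library was closer to the median cumulus profile (Spearman's r = 0.86) than to the median oocyte profile (r = 0.7244).

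Total counts ranged from 510029 to 2501005 in cumulus libraries and from 559305 to 4536690 in oocyte libraries. Per mouse, 10 granulosa and cumulus markers summed to between 8277 and 18629 CPM (counts scaled to the depth of the library) in cumulus cells, against 75.1 to 1122 CPM in oocytes, and 10 oocyte markers summed to at most 21.9 CPM in cumulus cells, so both cell types carried the markers of their labels. Endothelial, immune and theca or stroma markers summed to at most 59.6 CPM in cumulus cells of any mouse. The 4 luteinising or mural markers summed to more, up to 744 CPM in a middle label of the first set and 636 CPM in a 9-month mouse of the second. In a pool of cells, fewer expressing cells and less RNA per cell cannot be told apart.

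The sequence just upstream of 3 targets is shown because TEAD factors, through which YAP1 and TAZ act, are known to bind the core GGAATG. The 250 bases before the RefSeq start are given 5′ to 3′ on the gene's strand (GRCm38.p6), with GGAATG or its reverse complement CATTCC in capitals: Ccn1 at chr3:145649986-145650235, minus strand; Amotl2 at chr9:102717554-102717803, plus strand; and Ankrd1 at chr19:36119845-36120094, minus strand.
Ccn1: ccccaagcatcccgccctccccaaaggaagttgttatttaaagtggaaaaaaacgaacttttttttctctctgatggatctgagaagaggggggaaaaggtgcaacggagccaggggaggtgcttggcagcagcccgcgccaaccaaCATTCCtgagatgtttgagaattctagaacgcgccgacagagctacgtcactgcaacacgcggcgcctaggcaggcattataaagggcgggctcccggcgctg
Amotl2: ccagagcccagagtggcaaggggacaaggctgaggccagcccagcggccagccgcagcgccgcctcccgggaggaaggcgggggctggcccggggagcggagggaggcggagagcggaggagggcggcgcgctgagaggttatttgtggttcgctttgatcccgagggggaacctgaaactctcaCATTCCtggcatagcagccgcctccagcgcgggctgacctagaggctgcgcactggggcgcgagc
Ankrd1: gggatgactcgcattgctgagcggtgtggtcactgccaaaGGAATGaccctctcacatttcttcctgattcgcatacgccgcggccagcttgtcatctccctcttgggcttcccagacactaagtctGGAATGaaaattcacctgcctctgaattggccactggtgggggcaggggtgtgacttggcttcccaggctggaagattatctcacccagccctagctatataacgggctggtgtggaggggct
The core was present once before Ccn1, once before Amotl2 and 2 times before Ankrd1, and it was also present before Yap1 and Wwtr1. It was not found in this window of Lats1 or Lats2. Thus 5 of the 7 members with an entry held a match, against 14.4% of the 27025 genes with a promoter in the table (either strand). A match describes letters only. The members include known targets of YAP1 and TAZ, so no enrichment is read from these shares, and none was tested.

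The members lie at Ccn1 (ENSMUSG00000028195) chr3:145646976-145649981, Ccn2 (ENSMUSG00000019997) chr10:24595442-24598683, Ankrd1 (ENSMUSG00000024803) chr19:36111961-36120099, Amotl2 (ENSMUSG00000032531) chr9:102716672-102733418, Yap1 (ENSMUSG00000053110) chr9:7931999-8004596, Wwtr1 (ENSMUSG00000027803) chr3:57455649-57575910, Lats1 (ENSMUSG00000040021) chr10:7681214-7716460 and Lats2 (ENSMUSG00000021959) chr14:57689662-57758388 (GRCm38). All are protein coding. Exons of 3 members overlap another gene. Ccn2 overlaps the antisense gene Gm15270, Yap1 overlaps the antisense gene Gm20416, and Lats2 overlaps Gm49361 on its own strand. In cumulus cells of the second set, the partner held 12.7%, 3.61% and 43.9% as many counts as Ccn2, Yap1 and Lats2, so the Lats2 values in particular share reads with a neighbor and are uncertain. In oocytes Gm49361 held 433% as many counts as Lats2 in the second set and 243% in the first, so oocyte Lats2 values are more uncertain still.

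Per transcript length (RPKM), Lats1 had the highest median of the members over all cumulus libraries pooled. The 4 genes induced by YAP1 and TAZ spanned a wide range. In the second set the median over 128 cumulus libraries was 26.97 RPKM for Lats1, 21.4 for Ccn1, 17.5 for Wwtr1, 12.6 for Amotl2, 12.5 for Yap1, 7.07 for Ccn2 and 3.62 for Lats2, and Ankrd1 was listed at 0. Neighbors in this order were not separated by their spread. The middle 50% of libraries ran from 9.32 to 59.7 RPKM for Ccn1 and from 2.13 to 30.8 RPKM for Ccn2, whereas it ran from 11.3 to 14.3 RPKM for Yap1. In the first set, without CR, Lats1 was again first (29.4 RPKM), followed by Wwtr1 (13.3), Yap1 (12.1), Ccn1 (9.54), Amotl2 (7.04), Ccn2 (3.17) and Lats2 (2.81).

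**Figure D1:**
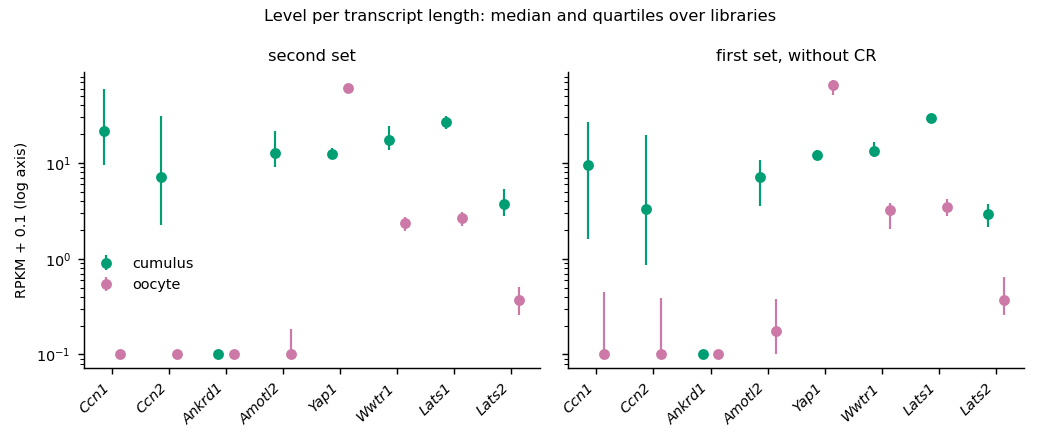
Level per transcript length of the 8 members in cumulus cells and oocytes, as RPKM + 0.1 on a log axis. Points are medians over libraries and bars run from the lower to the upper quartile. Yap1 was the only member with a higher median in oocytes (60.3 RPKM against 12.5 in cumulus cells, second set).

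Ankrd1, which encodes an ankyrin-repeat protein best known from stressed muscle, was barely detected in either cell type. It had 3 counts in 2 of the 128 cumulus libraries of the second set and 1 count in 1 of the 71 of the first set. In oocytes it had 1 count in the first set and 0 counts in the 127 libraries of the second set, which allows up to 3 counts of the 265300000 counts summed, or 0.0113 CPM (counting error only). It did not reach a count in 5 libraries and was not tested, so each comparison below covers 7 members.

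Hyperovulation came with a lower Ccn1 level in cumulus cells. This comparison asks whether the hormone treatment itself changes the cells at 2 months. Ccn1 lay between 89.8 and 330 CPM (median 194) in the 8 mice without hyperovulation and was 33.8, 43.0, 64.7, 70.2 and 85.7 CPM in the 5 mice with it. The groups did not overlap, and the fold difference was 3.44 (log2 change -1.78 ± 0.43 (SE), edgeR quasi-likelihood test, adjusted p = 0.0212). Across all genes 1.89% were called, that is, had an adjusted p below 0.05, and 0.885% were called lower. The first group lay below every mouse of the other for 0.521% of genes, and Ccn1 was 1 of 7 members to do so. An exact two-sided permutation test over the 13 mice gave p = 0.000777 for Ccn1, unadjusted for the 28 such tests run. The same test gave an unadjusted p of 0.00466 for Amotl2, 0.0295 for Yap1 and 0.0319 for Lats2. It gave 0.14 for Wwtr1, 0.378 for Ccn2 and 0.978 for Lats1.

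The other members were not called in the main edgeR fit on counts summed per mouse. Amotl2, Lats2 and Wwtr1 had an unadjusted p below 0.05 there. DESeq2 on mouse sums called Amotl2 (adjusted p = 0.0216) as well as Ccn1, beside 1059 of 27237 genes. With another filter (filterByExpr) or the label prefix (B1 or B2) as a covariate, edgeR called Amotl2 too (adjusted p = 0.049 and 0.0383). Amotl2, an angiomotin family protein that binds YAP1 and is itself a YAP1 target, had a lowest, median and highest level of 95.8, 145 and 234 CPM without hyperovulation. With hyperovulation it measured 68.0, 79.3, 87.7, 90.6 and 114 CPM, so only 1 treated mouse reached the untreated range. Its log2 change was -0.87 ± 0.25 (adjusted p = 0.0636). Ccn2 ran from 10.8 to 257 CPM (median 56.9) without hyperovulation and was 12.2, 45.3, 50.4, 72.3 and 77.9 CPM with it, and the treated values lay inside the untreated range (log2 change -1.17 ± 0.68, adjusted p = 0.414).

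The coactivators and kinases differed less. Wwtr1 fell into 2 clusters in the untreated mice, 4 at 83.0 to 92.2 CPM and 4 at 172 to 174 CPM, and was 66.7, 71.5, 103, 107 and 118 CPM with hyperovulation (log2 change -0.48 ± 0.21, adjusted p = 0.262). Both label prefixes, B1 and B2, held mice of either cluster. Lats2 ran from 16.6 to 68.1 CPM (median 41.5) without and was 22.2, 22.3, 23.5, 25.9 and 31.1 CPM with hyperovulation (log2 change -0.76 ± 0.26, adjusted p = 0.131). Yap1 (log2 change -0.15 ± 0.10, adjusted p = 0.467) and Lats1 (-0.03 ± 0.12, adjusted p = 0.931) had the smallest differences.

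**Figure D2:**
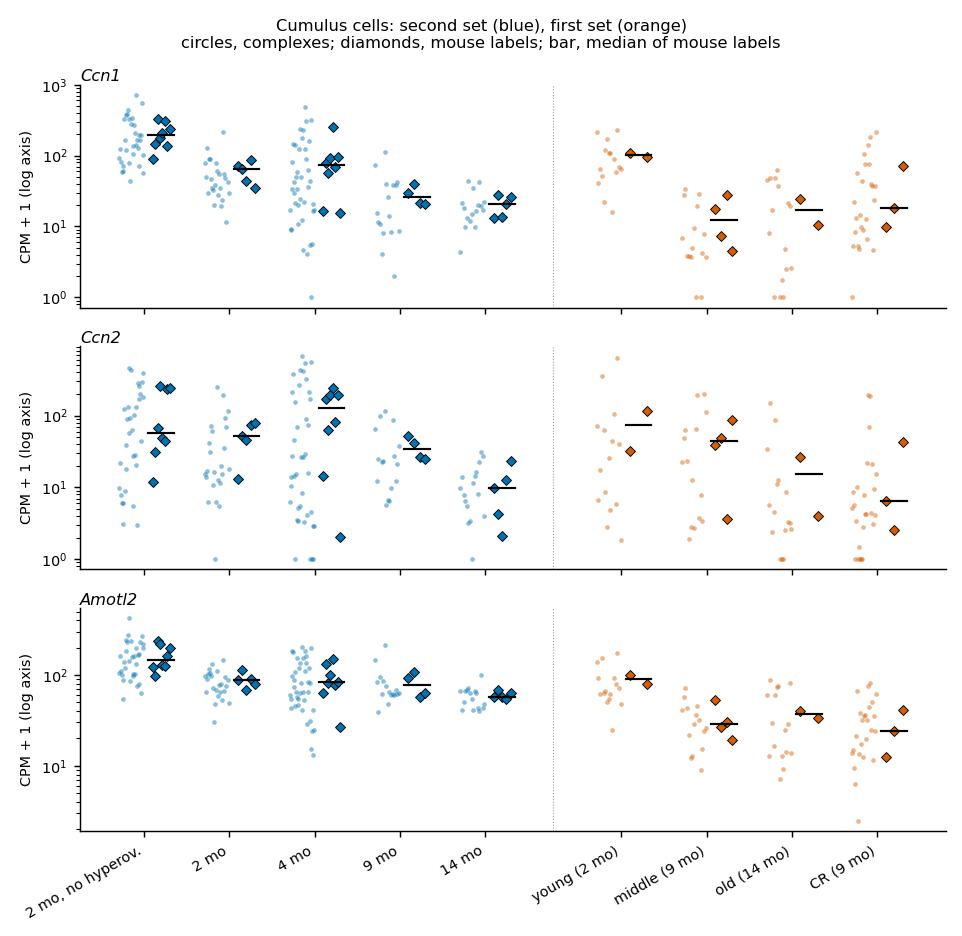
Cumulus levels of Ccn1, Ccn2 and Amotl2 by group, as CPM + 1 on a log axis. Small circles are complexes, diamonds are mouse labels and bars are medians of mouse labels. All 8 mice without hyperovulation lie above all 5 mice with it for Ccn1, at 89.8 CPM or more against 85.7 CPM or less.

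The Ccn1 call also held in a fit of the compared groups alone (adjusted p = 0.0105). It was lost without the 2-month mice 2mo2 (adjusted p = 0.0508), 2mo34 (0.0777) or 2mo36 (0.0676), each left out alone, and within the complexes labelled B1 (log2 change -1.64, adjusted p = 0.0862) or B2 (-1.88, adjusted p = 0.291). Over all fits that left out 1 mouse the log2 change ran from -1.94 to -1.63. With libraries as units, the design of the study, 5 members were lower (Ccn1, Ccn2, Amotl2, Wwtr1 and Lats2) beside 13.2% of all genes, but libraries of 1 mouse share their source and these p-values are too small.

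Markers moved with hyperovulation too, in a comparison where 1.89% of all genes were called. The granulosa and cumulus marker sum had a median of 14792 CPM with hyperovulation and 11280 CPM without it, and of its 10 markers 2 were called, both higher, while 4 had a negative log2 change. Inhbb, an inhibin and activin subunit (log2 change 1.59 ± 0.30, adjusted p = 0.00395), and the FSH receptor gene Fshr (0.90 ± 0.18, adjusted p = 0.0073) were higher with hyperovulation. Other markers of the list were not called, and for some the median was lower with hyperovulation, at 23.9 against 162 CPM for Slc38a3, 106 against 244 CPM for Amh, 68.2 against 95.4 CPM for Kitl and 2821 against 3087 CPM for Inha. Of the 4 luteinising or mural markers, which summed to 119 to 315 CPM with and 33.1 to 140 CPM without hyperovulation, aromatase (Cyp19a1) was higher (1.70 ± 0.37, adjusted p = 0.0117). The endothelial marker Cdh5 was also higher (2.15 ± 0.58, adjusted p = 0.0453) at levels of at most 10.7 CPM. Their part in the Ccn1 difference was not tested.

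The related gene lists showed a few calls under hyperovulation. Across all genes 1.89% were called in this comparison and 0.885% were called lower, the shares to set beside each list count here and below. Of 16 tested YAP and TAZ target genes outside the members, 3 were lower, 1 was higher and the median log2 change was -0.44, against -0.05 over all genes. Gadd45a, a stress-induced growth arrest gene, had a median of 27.2 CPM without and 9.84 CPM with hyperovulation (log2 change -1.69 ± 0.30, adjusted p = 0.00237). The matrix protein gene Ccdc80 (-1.56 ± 0.33, adjusted p = 0.00857) and the RNA-binding protein gene Rbms3 (-1.99 ± 0.48, adjusted p = 0.0215) were lower as well. Fjx1 was higher (adjusted p = 0.0296) at levels of at most 0.905 CPM.

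Of 24 other Hippo pathway genes, 1 was higher and 1 was lower, with a median log2 change of -0.05. Amotl1, an angiomotin relative of Amotl2, rose from a median of 81.3 CPM to 121 CPM (log2 change 0.52 ± 0.12, adjusted p = 0.0124), in the direction opposite to the Amotl2 estimate. Taok3, a kinase that can act upstream of the Hippo kinases, fell from a median of 24.6 CPM to 11.01 CPM (log2 change -1.27 ± 0.28, adjusted p = 0.0139). None of the 3 tested CCN family genes outside the members was called (median -0.63).

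Genes that respond within minutes to growth factors or to serum response factor were also examined, since Ccn1 is an immediate early gene as well as a YAP1 target. Of 19 immediate early genes 3 were lower and none was higher (median -0.40), namely the transcription factor genes Egr3 (-1.92 ± 0.46, adjusted p = 0.0221), Klf4 (-0.98 ± 0.24, adjusted p = 0.0248) and Atf3 (-1.10 ± 0.27, adjusted p = 0.0248). Of 7 tested actin cytoskeleton genes 2 were lower (median -1.11). These were smooth muscle actin, Acta2 (-3.54 ± 0.86, adjusted p = 0.0225), and tropomyosin, Tpm1 (-1.12 ± 0.31, adjusted p = 0.0491), and without hyperovulation Acta2 ranged from 0.261 to 35.1 CPM between mice.

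In the ages of the second set no member was called in the main edgeR fit on counts summed per mouse. The median over mice was lowest at 14 months for Ccn1 and Ccn2, whereas the median over libraries of Ccn1 was lower at 9 months (13.6 CPM) than at 14 months (16.7 CPM). The 2-month mice with hyperovulation, the same as above, are the reference for each age, so the age comparisons share them with the hyperovulation comparison and with each other. Ccn1 in the 8 mice of 4 months had a lowest, median and highest level of 14.3, 72.7 and 248 CPM. It was 19.6, 20.7, 28.6 and 39.2 CPM at 9 months and 12.1, 12.5, 19.4, 24.8 and 27.2 CPM at 14 months. Every 14-month mouse lay below every 2-month mouse, the 4-month mice spanned both, and the 9-month mice overlapped the lowest 2-month mouse.

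Ccn2 also spread widely at 4 months. Its lowest, median and highest levels were 1.039, 126 and 242 CPM at 4 months. It was 24.1, 25.5, 40.1 and 50.7 CPM at 9 months and 1.08, 3.27, 8.78, 11.7 and 22.1 CPM at 14 months. At 14 months 1 mouse, at 22.1 CPM, exceeded the lowest 2-month mouse, at 12.2 CPM. Amotl2 ran from 25.5 to 148 CPM at 4 months, from 56.6 to 106 CPM at 9 months and from 52.8 to 68.1 CPM at 14 months, where only the highest mouse reached the lowest 2-month value.

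Between 2 and 14 months the log2 change was -1.63 ± 0.49 for Ccn1 (adjusted p = 0.381), -2.35 ± 0.85 for Ccn2 (adjusted p = 0.527) and -0.57 ± 0.28 for Amotl2 (adjusted p = 0.628). None of the 7 members was called, 2 had an unadjusted p below 0.05 (Ccn1 and Ccn2), DESeq2 called 0 of them, and 0.0514% of all genes were called. Ccn1 was 1 of 7 members whose 14-month mice all lay below all 2-month mice, as did 0.844% of all genes. Exact two-sided permutation tests over the 10 mice gave an unadjusted p of 0.00794 for Ccn1, 0.0159 for Amotl2 and 0.0476 for Ccn2, which became 0.0635 with a pseudocount of 0.1. With libraries as units Ccn1 (-1.52) and Ccn2 (-2.11) were called lower, beside 1.7% of all genes, and in a fit of these groups alone Ccn1 was called (-1.63).

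Between 2 and 9 months the log2 change was -1.13 ± 0.51 for Ccn1 (adjusted p = 0.605), -0.56 ± 0.80 for Ccn2 and -0.15 ± 0.29 for Amotl2. It was -0.05 ± 0.11 for Yap1, -0.06 ± 0.24 for Wwtr1, -0.22 ± 0.14 for Lats1 and -0.02 ± 0.31 for Lats2. None of the 7 members was called, 1 had an unadjusted p below 0.05 (Ccn1), DESeq2 called 0, and 0.0551% of all genes were called. Exact two-sided permutation tests over these mice gave an unadjusted p of 0.0159 for Ccn1 and at least 0.127 for each other member. For 0 of 7 members, against 1.09% of all genes, did every 9-month mouse lie below every 2-month mouse. Between 2 and 4 months the estimates were 0.48 ± 0.41 for Ccn1, 1.21 ± 0.68 for Ccn2 and 0.0072 ± 0.25 for Amotl2. The coactivators and kinases had estimates from -0.25 ± 0.21 (Wwtr1) over -0.15 ± 0.12 (Lats1) and 0.0092 ± 0.095 (Yap1) to 0.14 ± 0.26 (Lats2). No member was called or had an unadjusted p below 0.05, DESeq2 called 0 members, and 0.0% of all genes were called (1660 at an unadjusted p below 0.05, and 1 called by DESeq2). The sign of the CCN values was not stable, since the mean over mice of the mean log2 level differed between 4 and 2 months by -0.37 for Ccn1 and -0.13 for Ccn2. The Ccn1 estimate of the fit was 0.0033 without the mouse 4mo26.

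Over the 4 ages together, a joint test called 0 of 7 members, with 0.275% of all genes called. Its adjusted p was 0.0531 for Ccn1 and 0.131 for Ccn2 and at least 0.671 for the other 5, and Ccn1 and Ccn2 had an unadjusted p below 0.05. DESeq2 called 1 member (Ccn1, adjusted p = 0.0184), beside 145 of 27237 genes. An edgeR fit of the compared groups alone called Ccn2 (adjusted p = 0.044) and not Ccn1 (0.05155). With no filter, edgeR called Ccn1 (adjusted p = 0.0213) and not Ccn2 (0.0666). Ccn1 was called without mouse 4mo29 (adjusted p = 0.0117) or 4mo3 (0.0123), the 2 mice of 4 months with the lowest Ccn1, and Ccn2 without 4mo29 (0.025). With libraries as units both were called, beside 6.58% of all genes. The immediate early, Hippo, CCN and actin lists gave 0 calls in every age comparison of the second set at the mouse level, as did the YAP and TAZ targets.

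**Figure D3:**
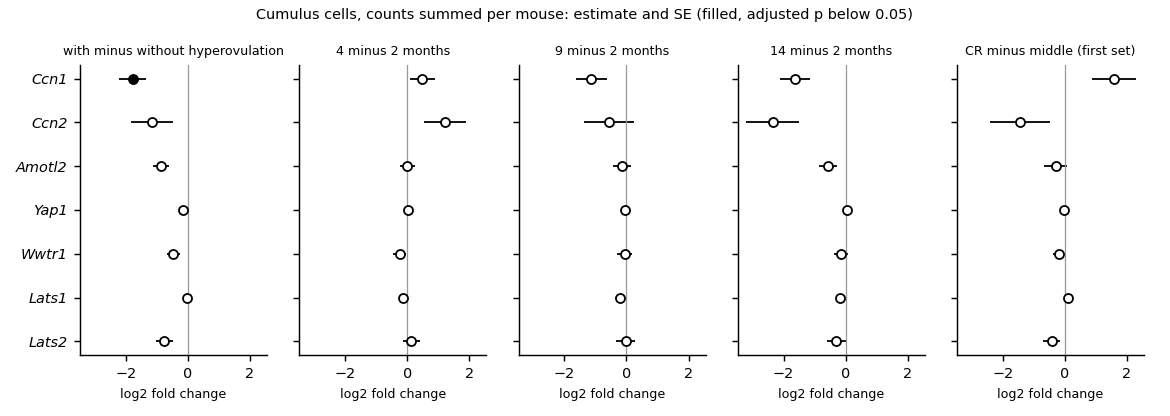
Fitted log2 fold changes of the 7 tested members in cumulus cells, with bars of 1 SE. Ccn1 and Ccn2 carry the largest changes in each panel and Yap1 stays near 0. Amotl2 comes next under hyperovulation (-0.87) and at 14 months (-0.57), but is 0.0072 at 4 months. At 9 months Lats1 (-0.22) exceeds Amotl2 (-0.15) in size, and under CR Lats2 (-0.42) exceeds it (-0.30). Ccn1 under hyperovulation (-1.78) is the only tested value that was called in this fit.

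Yap1, Wwtr1, Lats1 and Lats2 moved little with age. At 14 months the log2 change was 0.04 ± 0.11 for Yap1, -0.15 ± 0.23 for Wwtr1, -0.18 ± 0.13 for Lats1 and -0.30 ± 0.30 for Lats2, none of them called. Across all 41 mouse labels of both sets, the cumulus level of Yap1 lay between 96.3 and 147 CPM and that of Lats1 between 150 and 263 CPM, whereas Ccn1 lay between 3.49 and 330 CPM and Ccn2 between 1.039 and 257 CPM.

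**Figure D4:**
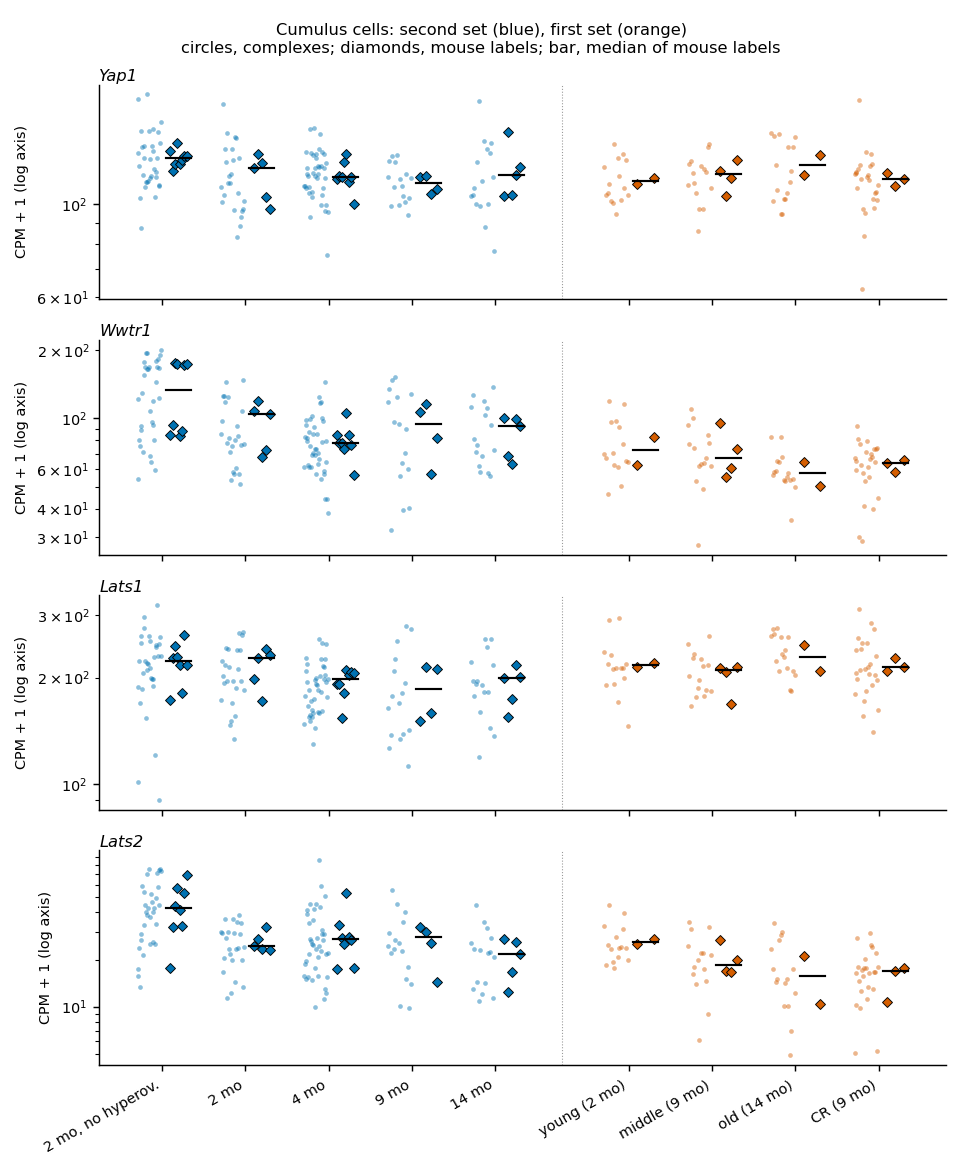
Cumulus levels of Yap1, Wwtr1, Lats1 and Lats2 by group, as CPM + 1 on a log axis, with complexes as small circles, mouse labels as diamonds and medians of mouse labels as bars. Yap1 stays between 96.3 and 147 CPM over all mouse labels, and Wwtr1 forms 2 clusters in mice without hyperovulation.

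In the first set, whose young and middle values chose the group, Ccn1 was 94.4 and 106 CPM in the young labels, 3.49, 6.23, 16.8 and 26.8 CPM in the middle labels, and 9.47 and 23.2 CPM in the old labels. The fitted log2 difference was -3.17 ± 0.74 from young to middle and -2.58 ± 0.85 from young to old. Amotl2 showed the same order, with 79.6 and 99.4 CPM in young, 18.1 to 52.5 CPM in middle and 32.5 and 39.6 CPM in old labels (log2 differences -1.50 ± 0.41 and -1.30 ± 0.48). Ccn2 did not separate young from middle labels, at 30.8 and 114 CPM against 2.596, 38.4, 47.1 and 86.2 CPM. It was 3.05 and 25.5 CPM in the old labels (log2 differences -0.67 ± 1.01 and -2.31 ± 1.25). The coactivators and kinases differed less from young to middle, by 0.04 ± 0.12 for Yap1, -0.03 ± 0.21 for Wwtr1, -0.11 ± 0.13 for Lats1 and -0.39 ± 0.31 for Lats2. From young to old the values were 0.12 ± 0.14, -0.35 ± 0.24, 0.08 ± 0.15 and -0.74 ± 0.35.

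The middle mice, whose low Ccn1 chose the genes, are the reference for both the old and the CR mice, so these values too are a description. From middle to old the log2 difference was 0.60 ± 0.78 for Ccn1, -1.63 ± 1.13 for Ccn2 and 0.20 ± 0.42 for Amotl2. It was 0.08 ± 0.12 for Yap1, -0.33 ± 0.21 for Wwtr1, 0.18 ± 0.13 for Lats1 and -0.36 ± 0.31 for Lats2. Across all genes 0.0% were called here (533 at an unadjusted p below 0.05, and 0 called by DESeq2).

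In the CR mice, set beside ad libitum feeding at 9 months, Ccn1 measured 8.74, 17.4 and 70.7 CPM against 3.49, 6.23, 16.8 and 26.8 CPM in the middle labels, and only CR3 exceeded the middle range. The log2 difference was 1.58 ± 0.69 and dropped to 0.27 ± 0.59 without CR3. Ccn2 measured 1.59, 5.50 and 41.5 CPM under CR against 2.596 to 86.2 CPM, so its estimate had the opposite sign (-1.45 ± 0.96, and -3.92 ± 1.09 without CR3). Amotl2 lay at 11.7, 23.1 and 39.9 CPM under CR and between 18.1 and 52.5 CPM in the middle labels (-0.30 ± 0.38).

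Yap1 lay at 109 to 117 CPM under CR (log2 difference -0.03 ± 0.11), Wwtr1 at 57.1 to 64.5 CPM (-0.21 ± 0.19), Lats1 at 207 to 226 CPM (0.10 ± 0.11) and Lats2 at 9.71 to 16.7 CPM (-0.42 ± 0.27). Across all genes 0.0718% were called at the mouse level and 3.6% with libraries as units, and nothing is read from the members' calls. Of 19 immediate early genes 0 were called at the mouse level, with a median log2 change of 0.44 against 0.05 over all genes. CR cumulus libraries were deeper than middle ones (median 2019007 against 1103163 counts), and diet and this difference between the libraries cannot be told apart.

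Yap1 dominated over Wwtr1 in oocytes, whereas the pair was closer to an even balance in cumulus cells. Yap1 was higher in the oocyte than in its own cumulus cells in 127 of 127 complexes of the second set and in 70 of 70 of the first, with a median fold of 6.22 and 7.88. Wwtr1 was lower in the oocyte in 127 of 127 and 68 of 70 complexes, Lats1 in 127 of 127 and 70 of 70, and Lats2 in 127 of 127 and 66 of 70. Per length, Yap1 made up 41.4% (median over cumulus libraries of the second set) of the sum of Yap1 and Wwtr1, with a range of 22.9% to 63.1%. In oocytes it made up 96.4%, with a range of 93.6% to 98.9%, and in the first set the medians were 48.1% and 95.6%. Lats1 was the major LATS transcript in both cell types (median 87.7% of Lats1 plus Lats2 in cumulus cells and 90.2% in oocytes of the second set). Reads that Lats2 shares with Gm49361 make these shares and the Lats2 differences uncertain, above all in oocytes.

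All 7 members were called between oocytes and cumulus cells in both sets, but so were 91.4% of all genes in the second set and 84.5% in the first, so the calls are near the background. The first set includes the young and middle cumulus cells whose Ccn1 chose the genes, so its values here are a description. In the second set the log2 difference, oocyte minus cumulus, was 2.73 ± 0.04 for Yap1, -2.64 ± 0.09 for Wwtr1, -2.93 ± 0.05 for Lats1 and -3.29 ± 0.14 for Lats2 (edgeR quasi-likelihood test, adjusted p = 4.27e-59 for Yap1). In the first set it was 3.19 ± 0.14, -1.40 ± 0.15, -2.03 ± 0.16 and -1.59 ± 0.27. Another scaling (RLE) moved the median of all genes by -0.13 in the second set and -0.38 in the first, less than any of these differences.

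Ccn1, Ccn2 and Amotl2 were low in oocytes, where Yap1 was high, and close to 0 there in the second set. In the second set Ccn1 had 33 counts in 27 of 127 oocyte libraries and at most 3 in any, Ccn2 had counts in 14 and Amotl2 in 58. The summed level was 0.124 CPM for Ccn1, 0.0452 for Ccn2 and 0.449 for Amotl2, against 92.7, 81.7 and 100 CPM in cumulus cells. Of the 127 complexes, Ccn1 was lower in the oocyte in 126, Ccn2 in 121 and Amotl2 in 127, and Ccn1 and Ccn2 were higher in 0. In the first set the summed oocyte levels were 0.805, 1.12 and 1.53 CPM, with up to 30, 62 and 74 counts in a library. There the oocyte exceeded its cumulus cells in 5 (Ccn1), 3 (Ccn2) and 1 (Amotl2) of 70 complexes.

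The mean Ccn1 level of oocytes was 0.175% of the cumulus level in the second set and 2.61% in the first. The granulosa and cumulus marker sum moved in parallel, at 0.938% and 5.37% of its cumulus level. Its part in the oocyte counts of these targets was not tested.

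Within oocytes, no member was called in any comparison between groups in the main edgeR fit. Under hyperovulation no member had an unadjusted p below 0.05 and 0.0% of all genes were called, by edgeR and by DESeq2 alike, with 1197 genes at an unadjusted p below 0.05 in edgeR. Yap1 had a log2 change of -0.01 ± 0.05 there. Over the ages of the second set 0.166% of all genes were called and 2 members (Ccn2 and Wwtr1) had an unadjusted p below 0.05, and between young and old oocytes 0.0% were called (2693 at an unadjusted p below 0.05, and 16 called by DESeq2) and 1 member (Wwtr1) had one. DESeq2 called 0 members in either.

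Under CR, where 7.68% of all genes were called in oocytes, Lats1 (log2 change 0.57 ± 0.20, adjusted p = 0.112) and Lats2 (0.97 ± 0.34, adjusted p = 0.108) had an unadjusted p below 0.05. So did Amotl2, with the opposite sign (-1.42 ± 0.64, adjusted p = 0.209). DESeq2 called 1 of the 7 members, Lats2, beside 3343 of 27124 genes, and oocyte Lats2 shares reads with Gm49361. Of 23 other Hippo genes tested, 3 were called, all higher in CR oocytes, and they are named here after their values were seen. They were Mob1b, a LATS cofactor (1.13 ± 0.15, adjusted p = 0.000826), Amot (1.10 ± 0.17, adjusted p = 0.00254) and the kinase Taok1 (0.67 ± 0.13, adjusted p = 0.0062). CR oocyte libraries were deeper than middle ones (median 3578882 against 2310395 counts), and diet and this difference between the libraries cannot be told apart.

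Whether the cell types responded unlike each other was tested with an interaction term in the second set. For hyperovulation 0 of 7 members were called, with 0.356% of all genes called, although Amotl2 and Lats2 had an unadjusted p below 0.05. For 2 against 14 months 0 of 7 were called, with 0.0211% of all genes called, and no member had an unadjusted p below 0.05. DESeq2 called 0 members in both. With so few oocyte counts, a different response of Ccn1 or Ccn2 was not detectable at this depth.

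The CCN genes also varied most between complexes of 1 group. The SD of log2(CPM + 1) within groups of the second set was 2.26 for Ccn2, 1.45 for Ccn1, 0.74 for Amotl2, 0.66 for Lats2, 0.52 for Wwtr1, 0.33 for Lats1 and 0.23 for Yap1. The order differed little in the first set, with 2.28 for Ccn2, 1.81 for Ccn1 and 1.06 for Amotl2. Of this variance 24.9% lay between mice for Ccn1, where 20.3% would be found with no mouse effect, whereas it was 40.1% for Ccn2, 39.2% for Amotl2 and 48.5% for Wwtr1. In mouse 4mo28, for example, the complexes ranged from 0 to 314 CPM for Ccn1 and from 0 to 553 CPM for Ccn2.

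Across complexes the targets varied together, as a description over 128 cumulus libraries of the second set with each group's mean removed. These libraries share mice and depth, and no p is given. Pearson's r was 0.70 for Ccn1 and Amotl2, 0.75 for Ccn2 and Amotl2 and 0.58 for Ccn1 and Ccn2, and 0.76, 0.62 and 0.44 over the 71 libraries of the first set. It was 0.31 for Ccn1 and Yap1, 0.26 for Ccn1 and Wwtr1 and -0.04 for Ccn1 and Lats1. Ccn2 was closer to Lats2, itself a known YAP1 target, with r = 0.64 (0.55 in the first set), and to Wwtr1 with r = 0.54 (0.26).

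**Figure D5:**
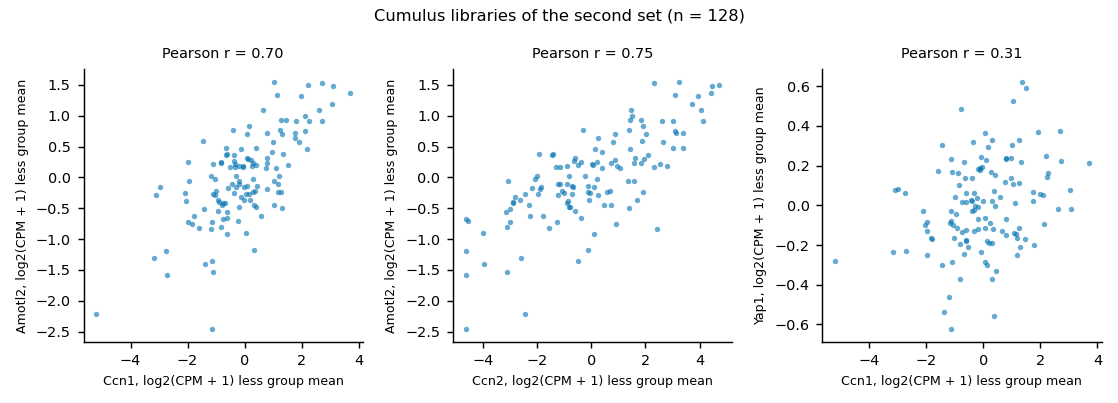
Pairs of members across the 128 cumulus libraries of the second set, each axis being log2(CPM + 1) less the mean of the library's group. Amotl2 rises with Ccn1 (r = 0.70) and with Ccn2 (r = 0.75), and Yap1 varies little and follows Ccn1 less (r = 0.31).

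Among 10469 genes with a mean of at least 8 CPM, the genes most like Ccn1 were Irs2, an insulin receptor substrate (r = 0.74, 0.71 in the first set), Zfp36l2, an mRNA decay factor (0.72, 0.79), Ptch1, the Hedgehog receptor and a Hedgehog target (0.71, 0.59), Amotl2 (0.70, 0.76) and Gem, a small GTPase (0.69, 0.74). Those most like Ccn2 were its antisense neighbor Gm15270 (0.88, 0.86), which shares its reads, Sh3bgrl (0.82, 0.75), Pros1, a protein S precursor gene and thus a ligand of TAM receptors (0.81, 0.77), Serinc5 (0.80, 0.73) and Slc25a33, a mitochondrial carrier (0.80, 0.75). The lists share no gene.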

How the data were processed

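RamDA-seq, a full-length total RNA method, was applied to single oocytes and to the cumulus cells of the same complex, with cumulus lysates diluted more than oocyte lysates. The authors trimmed reads with Fastq-mcf, aligned them to GRCm38 with HISAT2 2.0.5 and counted them over GENCODE vM15 genes with featureCounts 1.5.1, multi-mapped reads included. The deposited values are estimated counts, since 36.8% and 35.1% of nonzero values in the 2 sets were not whole (tolerance 1e-06), and they were rounded. The authors also deposited RPKM, which matched the counts within 1% for 100% of values outside CR and for 7.89% of CR values, so CR RPKM were not used. Strand use in counting is not given in the sources used here. No column of per-sample values was without a sample.

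Counts were summed per mouse label, since the labels name the mouse, except that Old1_2 appears to pool 2 animals. The sums were tested with edgeR 4.0.16 (R 4.3.3), TMM scaling and the quasi-likelihood test. There was 1 fit per cell type and set, keeping any gene seen in 5 or more libraries. Benjamini-Hochberg adjustment ran over all genes tested, and an adjusted p below 0.05 is a call. The study used libraries as units. SE is the log2 change divided by the square root of F. Levels are TMM-scaled CPM of the summed counts, and plots and correlations use log2(CPM + 1). Exact permutation tests used mouse means of log2(CPM + 1) over libraries and every regrouping of the mice. p-values rest on the mouse labels as units. The alternatives were DESeq2 1.42.0, RLE scaling, 2 other filters, the compared groups alone, libraries as units, the label prefix as a covariate, each prefix alone, all deposited libraries, each mouse left out, a mouse block and a pseudocount of 0.1. Promoter sequences are from RefSeq (GRCm38.p6), where Ccn2 had no entry, and coordinates from a GENCODE annotation of GRCm38. The tests were tried on simulated counts.

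The members, lists and tests were chosen with earlier results of these data known. All 8 members were to be named in every comparison. Ankrd1 was not tested, and comparisons between groups of oocytes give counts over the members and values for some. Of each other list, at most 3 called genes in each direction with the smallest adjusted p were eligible to be named, and for Ccn1 and Ccn2 the 5 genes with the largest correlation were named. In the oocyte and cumulus comparison, where nearly all genes were called, only members are named.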

Additional observations from a re-analysis of the deposited data

Results flagged for a closer look

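Of 42 groups of 4 to 10 mouse labels, 1 held a value set apart from the rest, where chance gives about 1 in 20. Lats1 in the middle cumulus cells of the first set was 168 CPM in Middle3, against 206 to 214 CPM in the other 3 labels (Dixon ratio 0.844). Middle3 was represented by 1 cumulus library after 1 of its complexes was left out.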

How the results depend on the processing

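No called value changed sign. For hyperovulation in cumulus cells, the number of members called was 1 with mice as units, 2 with DESeq2, filterByExpr or the label prefix as a covariate, 5 with libraries as units, 0 within B1, 0 within B2, and 0 to 3 with single mice left out. For any age difference in the second set it was 0, then 1 with DESeq2 or no filter (Ccn1) and 1 with the compared groups alone (Ccn2). There it was 2 with libraries as units, and 0 to 2 with single mice left out. For 2 against 14 months it was 0, then 1 with the compared groups alone and 2 with libraries as units. For CR cumulus cells it was 0, then 1 with libraries as units or no filter. For CR oocytes it was 0, then 1 with DESeq2, 2 with libraries as units and 4 with no filter. The difference in the hyperovulation response between the cell types was 0, then 1 with libraries as units. For oocytes against cumulus cells in the second set it was 7, and 8 with no filter, which lets Ankrd1 in. The CR cumulus counts use the middle mice that chose the genes, so no test is read from them.

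Counts over all genes moved more. Under hyperovulation 514 genes were called in cumulus cells, 1059 with DESeq2, 1065 with the prefix covariate, 781 with filterByExpr, 3181 with libraries as units, 230 with the groups alone, 224 within B1 and 8 within B2. Under CR 19 were called in cumulus cells, 364 with DESeq2, 474 with no filter, 887 with libraries as units, 8 with all deposited libraries, 7 with RLE and 0 with the groups alone. For any age difference 75 were called, 145 with DESeq2, 148 with the groups alone, 1731 with libraries as units, 22 within B2 and 0 within B1. For 2 against 14 months 14 were called, 24 with DESeq2, 30 with the groups alone, 388 with libraries as units, 8 with filterByExpr, 3 within B1 and 0 within B2, and for 2 against 9 months 15, 30 with no filter or within B2, 441 with libraries as units, 8 with filterByExpr, 2 with the groups alone and 0 within B1. For 2 against 4 months 0 were called, 1 with DESeq2 and 129 with libraries as units, and for middle against old 0, 5 with no filter and 10 with libraries as units. In oocytes CR gave 2083 calls, 3343 with DESeq2, 3411 with no filter, 7583 with libraries as units and 789 with all deposited libraries. Any age difference gave 43, 133 with DESeq2, 271 with libraries as units, 69 within B1 and 6 within B2. Hyperovulation gave 0, 7 with libraries as units, 19 within B1 and 12 within B2, and young against old 0, 16 with DESeq2, 853 with no filter and 1707 with libraries as units. The hyperovulation interaction gave 118, 618 with DESeq2, 202 with filterByExpr, 194 with the prefix covariate, 1216 with libraries as units, 60 with the groups alone, 58 within B1 and 28 within B2. The 14-month interaction gave 7, 55 with DESeq2, 215 with libraries as units, 17 with the groups alone, 11 within B1 and 1 within B2. Oocytes against cumulus cells gave 30275 in the second set and 19075 with filterByExpr, which tests fewer genes. The cause of these shifts was otherwise not tested. With the mouse as a replicate block, oocytes against cumulus cells gave 7 members called in each set (Yap1 2.73 and 3.16) and the interactions 0, as without it, while over all genes the interactions gave 190 calls for hyperovulation and 4 for 14 months. Same-mouse libraries pair oocytes and cumulus cells by the labels. Leaving out each mouse was not run for oocytes against cumulus cells.

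Depth limits Ankrd1 in both cell types and Ccn1, Ccn2 and Amotl2 in oocytes, where most libraries held few or no counts. Groups of 2 or 3 labels in the first set limit every comparison there.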
